A study of Mus musculus with 6 samples.

Results

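The genes described here are 7 genes of cholesterol synthesis and its control in the mouse aorta: *Srebf2*, *Insig1*, *Hmgcs1*, *Idi1*, *Fdft1*, *Sqle* and *Lss*. They were taken by gene symbol from a count table of 55341 listed genes, of which 16017 passed the filter on low counts, and all 7 were among these. The filter kept genes with at least 2 counts in all and with more than 1 CPM in at least 2 libraries. CPM is a count scaled to the total of its library, before normalization in this filter and after it in the values printed. They were picked by symbol and not by a rule on measured values, but earlier results of these data were known at the time. No gene of LDL uptake itself is among the 7, and uptake is described through a separate list of 9 genes.

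The study asked which aortic transcripts differ when miRNA-26b is absent. RNA of the aortic arch and thoracic aorta, taken after perfusion with phosphate buffered saline, was sequenced as 1 library per mouse from 3 miRNA-26b-/- and 3 miRNA-26b+/+ mice. All were 8 weeks old and ate chow, and the labels give the strain C57BL/6NCrl for both genotypes. In miRNA-26b-/- mice (M2626, M2627 and M2628) a floxed stretch of 160 bp that holds miR-26b, in an intron of *Ctdsp1*, was removed with tamoxifen-induced CreERT2, and CreERT2 was then bred out. The targeted stem cells came from another strain, so the knockout line began on a mixed background with C57BL/6. The miRNA-26b+/+ mice (M2629, M2630 and M2631) are called naive in the labels.

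In animal cells, cholesterol is made from acetyl-CoA through mevalonate, squalene and lanosterol. When sterols are plentiful, SCAP and the INSIG proteins hold the transcription factor SREBP2, the product of *Srebf2*, in the endoplasmic reticulum. When sterols fall, SREBP2 is cut free in the Golgi and raises the transcription of nearly every enzyme of the pathway and of genes for LDL uptake, so the pathway's transcripts serve as a readout of sterol supply. An artery wall gets its cholesterol both from this route and from plasma lipoproteins.

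The libraries held 25706728 to 33345037 counts, with normalization factors between 0.982 and 1.02. The labels call the cells endothelial, but 6 smooth muscle markers summed to 31127 to 42023 CPM and 7 endothelial markers to 412 to 1664 CPM, so the samples are described here as whole aorta. M2627 held the most adipocyte, sympathetic neuron and skeletal muscle marker RNA, and M2630 was next for adipocyte markers. *Mir26b* was listed at 0 counts in all libraries but M2630, where it had 20, and a count of 0 allows up to 3. Its host *Ctdsp1* averaged 189 ± 11.2 CPM in the knockout and 165 ± 15.6 CPM in the wild-type aortas (SD, n = 3 each). That is a log2 fold change of 0.20 with an adjusted p = 0.866 in edgeR's quasi-likelihood test. Within these libraries the genotypes therefore rest on the labels. The study itself reported the loss of miR-26b in its knockout mice by PCR of genomic DNA and by real-time PCR.

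The study reported the loss of both products of the deleted gene, miR-26b-5p and miR-26b-3p. Only miR-26b-5p was examined here, and matches to the seed of miR-26b-3p were not searched. Shown first is miR-26b-5p (GRCm38.p6, chr1:74394324-74394344, forward strand). Its close relative miR-26a-5p (for *Mir26a-1*, chr9:119031811-119031832, forward strand) follows, because both carry the same seed. The third miRNA shown, miR-33-5p (chr15:82198127-82198147, forward strand), is known for restraining cholesterol efflux and is encoded within *Srebf2*. Capitals mark the seed, bases 2 to 8.
mmu-miR-26b-5p: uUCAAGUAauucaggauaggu
mmu-miR-26a-5p: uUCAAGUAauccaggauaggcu
mmu-miR-33-5p: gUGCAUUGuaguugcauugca
The 7 bases that pair with the seed of miR-26b-5p, TACTTGA, were absent from the longest annotated 3′ UTR of all 7 genes. These UTRs ran from 275 bases in *Sqle* to 2411 bases in *Lss*. Across 21020 genes with a 3′ UTR, of median length 961 bases, 9.67% held these letters. Of 15 further enzymes of the pathway, 1 held them. It was *Acat2*, acetyl-CoA acetyltransferase of the first step, on the reverse strand at chr17:12943458-12943485 in GRCm38, where the match (capitals) is followed by an A.
*Acat2*: acctttctgtgcctcctgaaTACTTGAa
*Acat2* averaged 24.7 ± 16.3 CPM in knockout and 17.0 ± 3.42 CPM in wild-type aortas (SD, n = 3 each), with an adjusted p = 0.863 in edgeR.

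Promoter sequence from RefSeq (GRCm38.p6, 300 bases with 250 before the start in RefSeq) was matched for 5 of the 7 genes: *Srebf2*, *Hmgcs1*, *Idi1*, *Lss* and *Insig1*. These starts differ from the gene starts printed with each gene below, which are those of GENCODE. The windows were searched on both strands for TCACNCCA, the core of a sterol regulatory element, to which SREBP2 binds, and for CCAAT, the box bound by its partner NF-Y. These letters do not overlap each other in any of the windows printed. The first was found in *Srebf2* and *Hmgcs1*, 162 and 137 bases before the RefSeq start, both on the gene's strand, against 4.36% of 32851 promoters. It was also present in *Msmo1*, 1 of 13 other enzymes with a sequence. There the match lies inside the gene as GENCODE annotates it, which on the reverse strand begins at chr8:64733792. The 3 windows are shown because they are the places where the pathway's own regulator could be matched by letters alone, with the match in capitals.
*Srebf2* (chr15:82147096-82147125, forward): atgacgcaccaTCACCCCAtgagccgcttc
*Hmgcs1* (chr13:119690203-119690232, forward): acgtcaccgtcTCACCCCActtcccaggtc
*Msmo1* (chr8:64733737-64733766, reverse): tctcactattcTCACTCCAtccgcgcagcc
All 5 promoters held CCAAT, as did 37.4% of all promoters. A match is a description of letters, and no binding was measured.

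None of the 7 genes passed the test between genotypes, and in each of them the libraries of both genotypes overlapped. Over all genes tested, 6.47% had an unadjusted p under 0.05, 3.4% higher and 3.07% lower in miRNA-26b-/- aortas, and 11.5% did not overlap between genotypes. Only 1 gene of 16017 passed after Benjamini-Hochberg adjustment, and it was not one of the 7. The fold change was positive in 5 of 7, with a median log2 fold change of 0.16, against 51.4% positive and a median of 0.013 over all genes tested. In bulk tissue, a difference in RNA per cell and a difference in the number of cells of a type cannot be told apart.

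**Figure D1:**
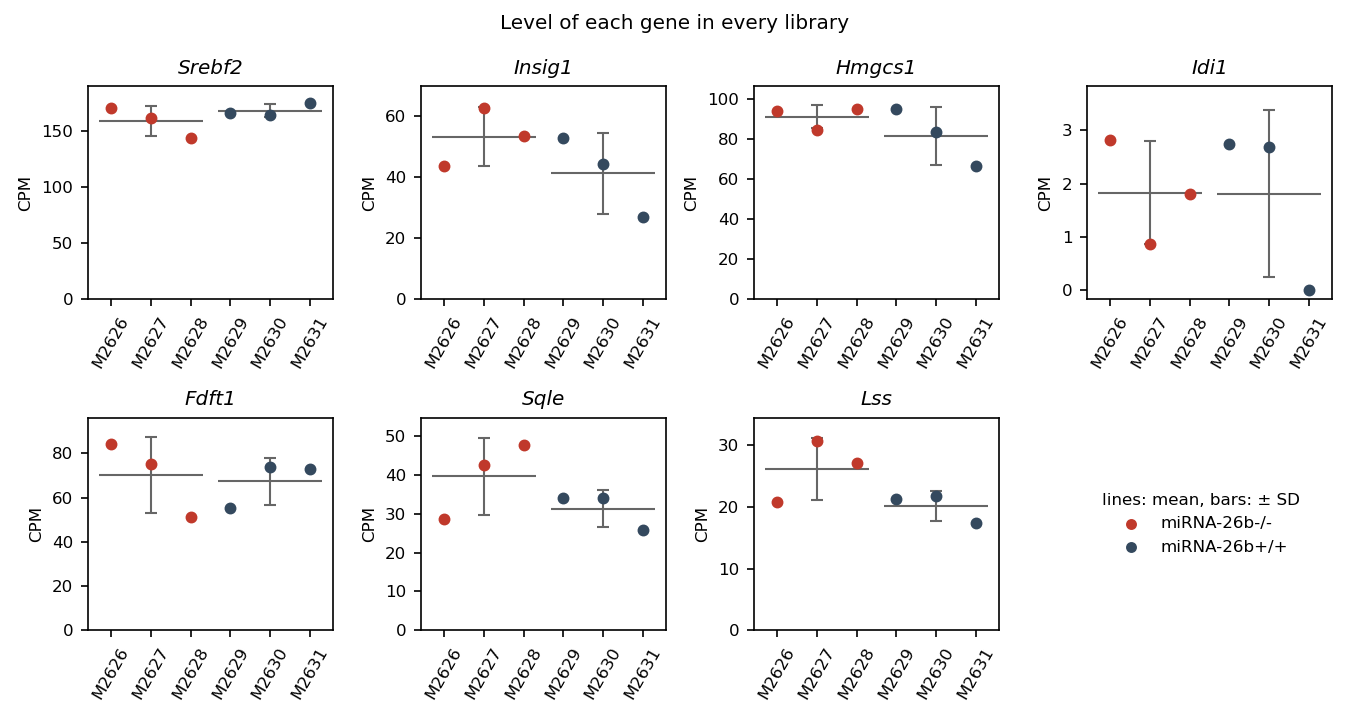
Level of each of the 7 genes in CPM (linear axes) in the 6 libraries, red for miRNA-26b-/- and blue for miRNA-26b+/+, with the mean (line) and SD (bar) of each genotype. Points of both colours overlap in every panel, and M2631 is the lowest point for *Insig1*, *Hmgcs1*, *Idi1*, *Sqle* and *Lss* but the highest for *Srebf2*.

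*Srebf2* (ENSMUSG00000022463.8, chr15:82147181-82205379, forward strand, 19 exons in its longest coding transcript) encodes SREBP2. It was measured at 171, 161 and 144 CPM in M2626, M2627 and M2628 and at 166, 165 and 175 CPM in M2629, M2630 and M2631, from 4058 to 5413 counts per library. The lowest value was a miRNA-26b-/- library and the highest a miRNA-26b+/+ library, with the other 4 between them. The log2 fold change was -0.085 (SE 0.14, 95% interval -0.39 to 0.22; unadjusted p = 0.564 and adjusted p = 0.960 in edgeR, exact permutation p = 0.4), which spans folds of 0.762 to 1.17. Here and below the exact permutation test is two-sided on the mean CPM, and 0.1 is the smallest p that 3 against 3 can give. The highest library was 1.21-fold above the lowest. Of 9762 genes with at least 10 CPM and no library at 0, 3.20% varied less over the 6 libraries, and the median gene varied 1.69-fold. *Mir33*, a hairpin of 69 bases in intron 16 of *Srebf2* (chr15:82198122-82198190), was listed at 0 counts in all 6 libraries. These were not small RNA libraries, so this gives no level of miR-33.

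*Insig1* (ENSMUSG00000045294.11, chr5:28071363-28078662, forward strand, 5 exons) encodes the membrane protein that retains SCAP and SREBP2 and is itself a target of SREBP2. It had 43.6, 62.9 and 53.5 CPM in M2626, M2627 and M2628 and 52.8, 44.2 and 26.8 CPM in M2629, M2630 and M2631. M2627 was highest and M2631 lowest, while M2626 lay below 2 of the 3 miRNA-26b+/+ libraries. Between genotypes the log2 fold change was 0.38 (SE 0.25, 95% interval -0.15 to 0.91; unadjusted p = 0.148 and adjusted p = 0.852 in edgeR, exact permutation p = 0.3), which includes folds from 0.901 to 1.88. Its fold between the highest and lowest library, 2.35, was the largest of the 6 genes without a zero count. Without M2631 the log2 fold change was 0.13, so most of the difference came with that single library.

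*Hmgcs1* (ENSMUSG00000093930.2, chr13:119690379-119708260, forward strand, 11 exons) encodes cytosolic HMG-CoA synthase, which makes the precursor of mevalonate. Its CPM were 94.1, 84.3 and 94.8 in the miRNA-26b-/- libraries M2626 to M2628 and 95.01, 83.4 and 66.2 in the miRNA-26b+/+ libraries M2629 to M2631. Apart from M2631, all libraries lay between 83.4 and 95.01. This gave a log2 fold change of 0.16 (SE 0.18; unadjusted p = 0.391 and adjusted p = 0.932 in edgeR, exact permutation p = 0.5), or 0.018 without M2631. The annotation puts 557 bases of *Gm48342* over exons of *Hmgcs1*, and reads there were counted for both genes. *Gm48342* had 16.7 ± 6.70 and 20.9 ± 4.08 CPM (SD, n = 3 each).

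*Idi1* (ENSMUSG00000058258.14, chr13:8885501-8892451, forward strand, 5 exons) encodes isopentenyl-diphosphate isomerase, which balances the pair of isoprene units from which farnesyl diphosphate is built. It was the scarcest of the 7, with 72, 29 and 51 counts in M2626 to M2628 and 84, 74 and 0 counts in M2629 to M2631. In CPM these are 2.81, 0.865 and 1.81 against 2.74, 2.696 and 0, and 0 counts in M2631 allows up to 0.0993 CPM. The miRNA-26b+/+ group therefore held both the second highest value of all 6 libraries and the only zero. Its log2 fold change was -0.037 with a 95% interval from -2.05 to 1.98 (SE 0.95, adjusted p = 0.997 in edgeR), and the sign depended on the setting. With this spread between libraries, M2631 at 0 among them, no difference in either direction was detectable. Of the 25-base stretches of *Idi1* transcripts, 19.3% also occur in transcripts of other genes, with most in the pseudogene *Gm13502*. That gene had at most 3 counts in any library.

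*Fdft1* (ENSMUSG00000021273.10, chr14:63145150-63179578, reverse strand, 10 exons) encodes squalene synthase, the first step committed to sterols. It had 84.1, 75.1 and 51.0 CPM in M2626, M2627 and M2628 and 55.2, 73.9 and 72.8 CPM in M2629, M2630 and M2631. Each genotype held 1 low library, M2628 and M2629, and the genotypes overlapped over nearly their whole range. A log2 fold change of 0.059 (SE 0.21; unadjusted p = 0.783 and adjusted p = 0.988 in edgeR, exact permutation p = 0.8) went to -0.085 without M2626 and to -0.066 without M2629. *Fdft1* shares 774 exonic bases with *Ctsb*, the gene of the lysosomal protease cathepsin B, at 1196 ± 84.7 and 1202 ± 52.6 CPM (SD, n = 3 each). Reads were counted without strand and once for each gene they overlap, so some counts of *Fdft1* may be *Ctsb* reads. Their share was not tested. A further 16.3% of the 25-base stretches of *Fdft1* occur in *Gm6781*, which had at most 8 counts in a library.

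*Sqle* (ENSMUSG00000022351.14, chr15:59315077-59331192, forward strand, 11 exons) encodes squalene epoxidase, a slow and tightly controlled step. M2626, M2627 and M2628 had 28.6, 42.4 and 47.8 CPM and M2629, M2630 and M2631 had 34.1, 34.0 and 25.7 CPM. The pair M2627 and M2628 lay above all other libraries, and M2626 lay below M2629 and M2630. For *Sqle* the log2 fold change was 0.35 (SE 0.24, 95% interval -0.17 to 0.87; unadjusted p = 0.171 and adjusted p = 0.858 in edgeR, exact permutation p = 0.3), which is a fold between 0.889 and 1.83. Without M2626 it was 0.52 with an unadjusted p = 0.0499 in edgeR, the only one of 15 alternative settings in which any of the 7 genes reached the threshold.

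*Lss* (ENSMUSG00000033105.12, chr10:76531588-76557138, forward strand, 22 exons) encodes lanosterol synthase, which closes the sterol rings. Its values were 20.7, 30.7 and 27.0 CPM in M2626, M2627 and M2628 against 21.2, 21.8 and 17.3 CPM in M2629, M2630 and M2631. As for *Sqle*, M2627 and M2628 were the 2 highest libraries, M2631 the lowest, and M2626 fell among the miRNA-26b+/+ mice. With a log2 fold change of 0.39 (SE 0.27, 95% interval -0.17 to 0.96; unadjusted p = 0.159 and adjusted p = 0.857 in edgeR, exact permutation p = 0.3), *Lss* had the largest of the 7 differences. In *Lss*, *4930483K19Rik* overlaps 381 exonic bases and had at most 136 counts in a library.

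With M2627 and M2630 left out, none of the 7 passed the test, and the smallest p among them was 0.309. The log2 fold changes were then -0.11 for *Srebf2*, 0.29 for *Insig1*, 0.23 for *Hmgcs1*, 0.73 for *Idi1*, 0.075 for *Fdft1*, 0.36 for *Sqle* and 0.31 for *Lss*.

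Levels of different genes can be compared only per length. In RPKM, the CPM divided by the kilobases of annotated exon, the means over the 6 libraries were 22.8 for *Srebf2*, 18.8 for *Hmgcs1*, 16.3 for *Fdft1*, 15.3 for *Insig1*, 6.39 for *Sqle*, 2.14 for *Lss* and 0.519 for *Idi1*. The ranges of *Srebf2* (20.03 to 24.3) and *Hmgcs1* (14.4 to 20.7) overlapped slightly, and those of *Hmgcs1*, *Fdft1* (12.1 to 19.9) and *Insig1* (8.67 to 20.3) overlapped, so with this length no neighbours among the first 4 differed beyond their spread. *Sqle* (4.64 to 8.61) lay below *Insig1* (8.67 at the least) by a narrow margin, and *Lss* (1.604 to 2.85) and *Idi1* (0 to 0.803) stood apart from it and from each other. The union of annotated exons is 10787 bases for *Lss* and its longest coding transcript 4667, so its RPKM is understated. Divided by the longest coding transcript, a length chosen after seeing the data, the means were 4.96 for *Lss* and 12.8 for *Sqle*, and *Fdft1* at 18.6 still came before *Insig1* at 17.5. With that length *Srebf2* (28.3 to 34.4) no longer overlapped *Hmgcs1* (19.1 to 27.4), and *Sqle* (9.32 to 17.3) overlapped *Insig1* (9.94 to 23.3), so both statements depend on the length used.

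**Figure D2:**
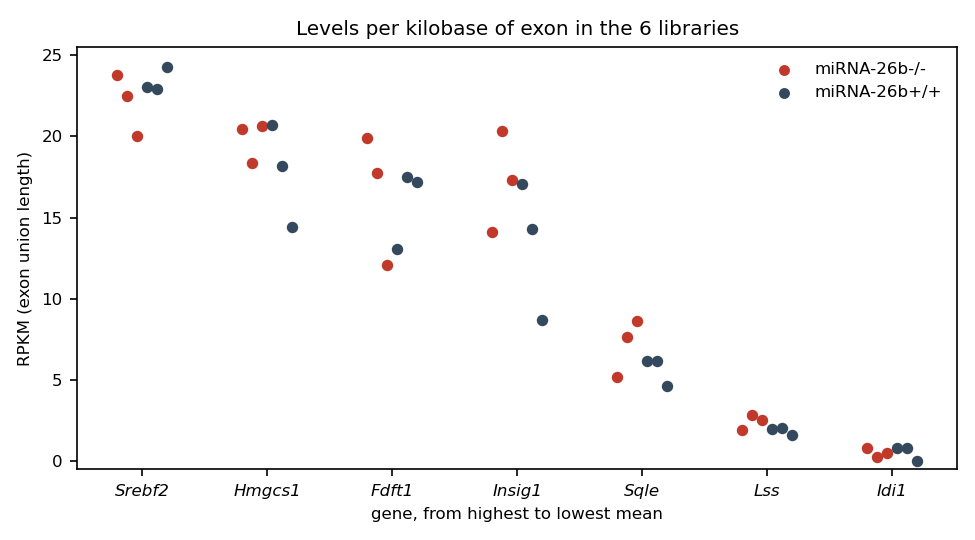
RPKM (linear axis, length of the union of exons) of the 7 genes in each library, ordered by mean, red for miRNA-26b-/- and blue for miRNA-26b+/+. *Srebf2*, *Hmgcs1*, *Fdft1* and *Insig1* form an upper group with means from 15.3 to 22.8 RPKM, and *Idi1* lies at 0.519.

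From mouse to mouse the enzymes did not move as a block. Over the 6 libraries, log2 CPM of *Sqle* and *Lss* correlated at r = 0.91, *Lss* and *Insig1* at 0.88, *Sqle* and *Insig1* at 0.82 and *Hmgcs1* and *Insig1* at 0.78. *Idi1*, with its low counts and its 0 in M2631, correlated with *Hmgcs1* at 0.92, the highest r of all pairs, and with *Insig1* at 0.78. *Srebf2* ran opposite to *Sqle* (r = -0.91) and *Lss* (r = -0.71) and with *Fdft1* (r = 0.71), and *Fdft1* had negative r with each of the other 5 genes. These are descriptions of 21 pairs over 6 points that share library and depth, with no test. The mean of the 7 standardized levels was -0.98 in M2631, 0.52 in M2627 and 0.077 to 0.23 in the other 4 libraries, so a single miRNA-26b+/+ mouse set much of the pattern. M2631 was also lowest for the sums of adipocyte markers (892 CPM, against 1099 to 3284 CPM elsewhere) and brown adipocyte markers (157 CPM, against 221 to 502). All 7 adipocyte markers had r over 0.5 with the mean of the 7 genes, where 16.6% of 9768 genes of at least 10 CPM did. So did 4 of 7 markers each of brown adipocytes, sympathetic neurons and skeletal muscle, 2 of 5 of cardiac muscle and 0 in the other marker lists. The part of adipocyte RNA, or of RNA from the other cell types, in these values was not tested.

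The 6 genes outside the lists with the pattern most like the mean of the 7 were *Gm33051* (r = 0.99), *Mgat3* (0.99), *BC005537* (0.99), *Gm13610* (0.98), *Gm44317* (0.98) and *Wdr20* (0.98), each over 6 libraries. All 6 were lowest in M2631, for example *Gm33051* at 2.75 CPM against 10.02 to 18.2 CPM in the other libraries, and *BC005537* at 147 against 175 to 192.

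Among the other 15 enzymes of the pathway, 2 had an unadjusted p under 0.05, both higher in miRNA-26b-/- aortas, against 3.4% of all genes higher, and none passed after adjustment. *Dhcr7*, which makes cholesterol from 7-dehydrocholesterol, was one of them and had 11.5, 18.7 and 19.1 CPM in M2626, M2627 and M2628 against 11.4, 8.75 and 4.10 CPM in M2629, M2630 and M2631, a log2 fold change of 1.04 (SE 0.40, 95% interval 0.18 to 1.91; unadjusted p = 0.0208 and adjusted p = 0.736 in edgeR, exact permutation p = 0.1). Every miRNA-26b-/- library lay above every miRNA-26b+/+ library, by a margin of 11.5 to 11.4 CPM.

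None of the 15 enzymes was called without M2627, without M2631, or without both M2627 and M2630. The log2 fold changes of *Dhcr7* were then 0.94, 0.71 and 0.99, and it also missed the threshold without M2628. Myelinating Schwann cells make much cholesterol, and the summed level of 12 Schwann cell markers was 343 to 503 CPM in miRNA-26b-/- and 233 to 304 CPM in miRNA-26b+/+ libraries, with no overlap. Of its 11 markers tested, 8 were called higher and 1, *Egr2*, lower, against 3.4% higher and 3.07% lower over all genes tested. The Schwann cell sum and *Dhcr7* are given here for each library, as a description only. The sum was 503, 499 and 343 CPM in M2626, M2627 and M2628, where *Dhcr7* had 11.5, 18.7 and 19.1 CPM. In M2629, M2630 and M2631 the sum was 233, 261 and 304 CPM, where *Dhcr7* had 11.4, 8.75 and 4.10 CPM. With so few libraries per genotype, and M2626 and M2627 nearly tied in the sum, the order of these values cannot relate *Dhcr7* to nerve RNA. The part of nerve RNA in the level of *Dhcr7* was not tested.

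The remaining enzymes gave no call. The fold change was positive in 14 of 15, with a median log2 fold change of 0.38, and in 10 of 15 with a median of 0.15 without M2627 and M2630. The most abundant of them were *Sc5d* (51.8 ± 7.77 against 39.9 ± 4.51 CPM, adjusted p = 0.790), *Cyp51* (46.3 ± 12.5 against 45.0 ± 6.54), *Msmo1* (41.2 ± 8.01 against 40.0 ± 14.3) and *Lbr* (37.8 ± 14.7 against 36.2 ± 3.53), each as mean ± SD of 3 mice. *Mvd*, mevalonate diphosphate decarboxylase, named after its values were seen, did not overlap between genotypes either (7.60 ± 1.63 against 4.47 ± 1.79 CPM, adjusted p = 0.851), so 3 of 15 were without overlap against 11.5% of all genes.

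**Figure D3:**
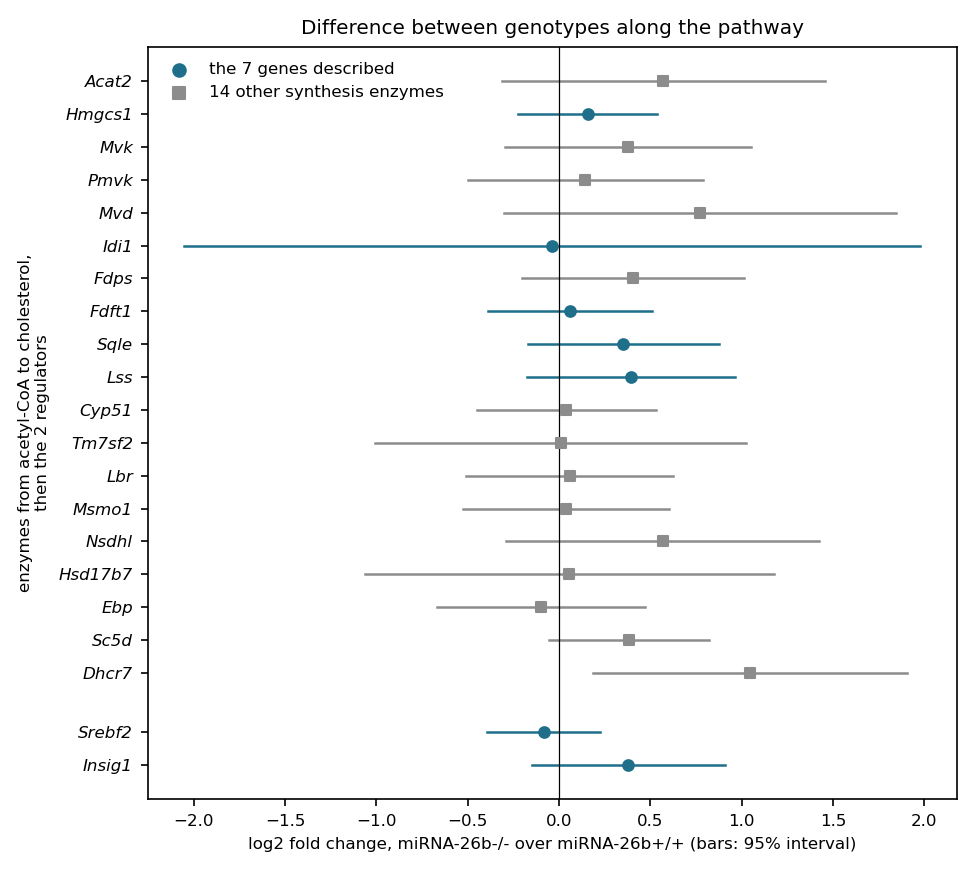
Log2 fold change between genotypes (points, positive when higher in miRNA-26b-/-) with its 95% interval (bars) for the enzymes in pathway order from top to bottom, then *Srebf2* and *Insig1*, with circles for the 7 genes and squares for 14 other enzymes. The interval of *Dhcr7* (0.18 to 1.91) excludes 0, and those of the 7 genes all include it.

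The machinery of sterol sensing and SREBP cleavage gave no call among 14 genes, with 11 positive fold changes and a median log2 fold change of 0.11. Here and for the lists below, the share called over all genes tested was 6.47%. *Mbtps1*, the site-1 protease, had 228 ± 20.7 and 229 ± 20.5 CPM. *Srebf1*, the gene of the paralogue SREBP1, had 170 ± 20.9 against 136 ± 20.4 CPM (log2 fold change 0.32, adjusted p = 0.776), and *Sp1*, a general promoter factor that acts beside SREBPs, 140 ± 14.4 against 124 ± 9.90 CPM.

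Lipoprotein uptake and lysosomal release gave no call among 9 genes, with a median log2 fold change of -0.020 and 4 positive values. *Lrp1*, a large endocytic receptor of the LDL receptor family, was the most abundant at 1313 ± 340 and 1593 ± 241 CPM (log2 fold change -0.28, adjusted p = 0.831). *Vldlr*, the receptor for very low density lipoprotein, had 206 ± 31.2 and 209 ± 50.2 CPM. *Npc2* and *Lipa*, which move and free cholesterol in lysosomes, had 159 ± 28.7 and 151 ± 9.29 CPM and 62.1 ± 6.67 and 55.7 ± 13.4 CPM. All values are mean ± SD of 3 mice, miRNA-26b-/- first.

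The branch from farnesyl diphosphate to non-sterol isoprenoids gave no call among 8 genes, with 4 of 8 positive. *Nus1* and *Dhdds*, the subunits of the enzyme that starts dolichol synthesis, had 87.5 ± 13.3 and 91.1 ± 27.4 CPM and 54.1 ± 6.22 and 47.6 ± 7.91 CPM. *Ggps1*, geranylgeranyl diphosphate synthase, had 50.2 ± 8.53 and 48.4 ± 1.85 CPM. *Pggt1b*, a subunit of a prenyltransferase, had 58.3 ± 5.35 and 45.7 ± 7.35 CPM (adjusted p = 0.805).

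The summed level of fatty acid synthesis genes, driven mainly by SREBP1, varied more between mice than the sum of the 7 cholesterol genes did. The sum of its 12 genes ran from 3104 CPM in M2628 to 12674 CPM in M2630, a 4.08-fold range, whereas the sum of the 7 cholesterol genes ran from 383 to 458 CPM, a 1.19-fold range. Each sum follows its most abundant genes, and single genes of the lists overlapped in range. *Insig1* varied 2.35-fold, more than *Fads1* (1.34-fold) and *Fads2* (1.27-fold), while *Scd1* varied 5.05-fold. *Scd1*, stearoyl-CoA desaturase, had 1950, 4126 and 1186 CPM in M2626, M2627 and M2628 and 3638, 5982 and 1644 CPM in M2629, M2630 and M2631. *Fasn*, fatty acid synthase, had 1415, 2700 and 891 CPM and 2127, 4226 and 1106 CPM in the same order. In both genotypes the library with the most adipocyte marker RNA, M2627 and M2630, was the highest for *Scd1* and *Fasn*. Of the 12 genes, *Fads1* was instead highest in M2626 and M2631, *Fads2* in M2628 and M2631, and *Scd2* in M2627 and M2629. The rest of the 12 were highest in M2627 and M2630. No gene of the 12 was called, and the median log2 fold change was -0.18. *Acly* had 359 ± 204 and 462 ± 271 CPM, and *Scd2*, a desaturase not confined to fat, had 302 ± 63.3 and 293 ± 26.8 CPM (SD, n = 3 each). Of the 58 genes in the 5 further lists, 2 were called in all, both among the synthesis enzymes, against 6.47% of all genes tested.

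**Figure D4:**
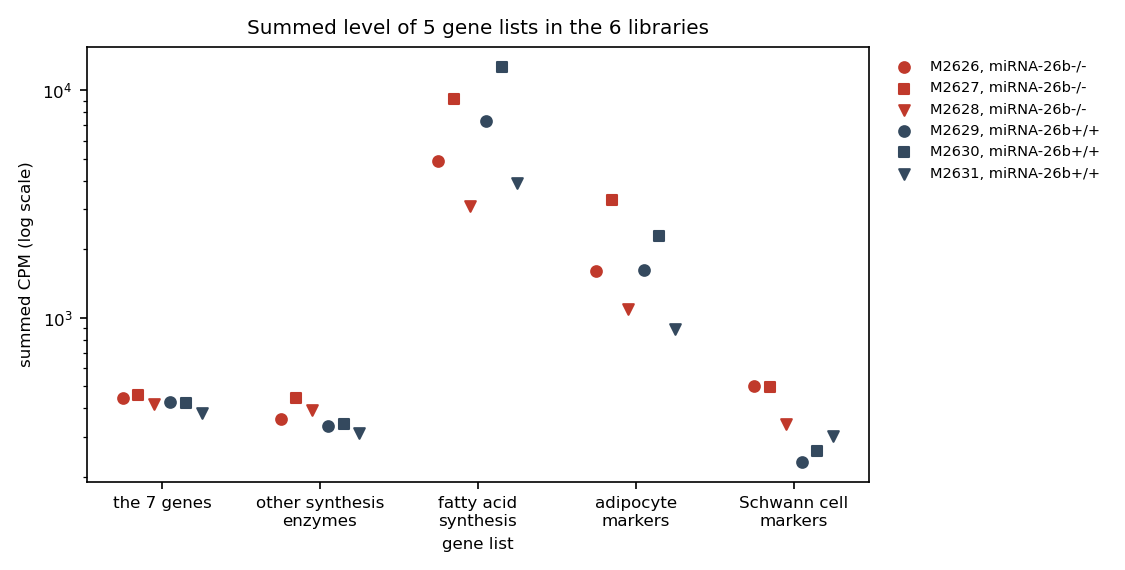
Summed CPM (log axis) of 5 gene lists in each library, with red for miRNA-26b-/-, blue for miRNA-26b+/+ and 1 marker shape per library of a genotype. The 7 cholesterol genes span 383 to 458 CPM, the fatty acid genes 3104 to 12674 CPM, and the Schwann cell markers (343 to 503 against 233 to 304 CPM) do not overlap between genotypes.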

How the data were processed

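Aortic RNA of 3 miRNA-26b-/- and 3 miRNA-26b+/+ mice was measured. The authors aligned reads with STAR to GRCm38 and deposited raw counts per gene from featureCounts 1.6.4 over the exons of GENCODE release M21, ignoring strand and giving a read to every gene whose exons it overlaps. A second deposited table of normalized values and comparisons was not used. Counts were normalized by TMM and tested over all genes with edgeR 4.0.16 (R 4.3.3, quasi-likelihood F-test, prior count 0.125, genes with at least 2 counts and over 1 CPM in 2 or more libraries). Adjusted p-values are Benjamini-Hochberg over 16017 genes. Before adjustment, edgeR's p-values set the difference between genotypes against the spread between 3 mice per genotype, which is estimated partly from all genes. CPM and RPKM were computed from the counts. Alternatives were library sizes alone, upper quartile, DESeq2 1.42.0 and its size factors, limma voom 3.58.1, 2 other filters, the earlier method of edgeR, and leaving out libraries. Depth was 25706728 to 33345037 counts, and limits for 0 counts (3 counts) cover counting error only. The 7 genes and the lists were chosen with earlier results of these data known. Named list genes are those with p under 0.05 and the 4 most abundant others, of which some are not reported here. The procedure was tested on simulated data.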

Additional observations from a re-analysis of the deposited data

How the results depend on the processing

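*Srebf2*, *Insig1*, *Hmgcs1* and *Lss* kept their direction and stayed uncalled under all 15 alternatives. *Sqle* kept its direction and was called in 1 of them, so 1 of the 7 genes was called without M2626 and 0 to 1 over the fits that leave out 1 library. *Idi1* changed sign with DESeq2 (0.014), limma voom (1.69), the earlier method of edgeR (0.012), chosen after seeing the data, and without M2627 and M2630 (0.73), and ranged from -0.65 to 0.44 when 1 library was left out. *Fdft1* ranged from -0.085 to 0.24 when 1 library was left out. Called enzymes among the other 15 ranged from 0 to 3 when 1 library was left out and were 0 without M2627 and M2630. Genes at an unadjusted p under 0.05 were 686 to 1692 with 1 library left out (lowest without M2631, highest without M2628) and 607 without M2627 and M2630. Genes passing after adjustment, 1 here, were 57 with DESeq2, 3 with limma voom, 0 with the earlier method of edgeR, 0 without M2627 and M2630, and 0 to 82 with 1 library left out. The cause of these changes was not tested. Library sizes alone moved the median log2 fold change of all genes from 0.013 to 0.028. No paired analysis was possible because the labels carry no replicate numbers. With 3 mice per genotype the 95% intervals of the 7 genes include folds from 0.762 to 1.95 across the 6 genes other than *Idi1*.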
